A study of Mus musculus with 155 samples.

Results

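Oligodendrocyte progenitor cell (OPC) cultures were compared with retinoic acid (RA)-treated cells, both grown from the same mouse embryonic stem cell (ESC) lines. The comparison took all 4 OPC libraries and the 4 RA-treated libraries of the same lines, which are 8 of the 42 RNA-seq libraries with gene counts and 8 of the 155 samples of the series. Each side held 1 library of the WT-H3.3 line and 1 of the H3.3K27M line at 24 h and at 72 h after doxycycline (Dox), and the line entered the test as a factor. Libraries of the remaining line, H3.3K27L, had no OPC counterpart and were left out.

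The study asked how replacing lysine 27 of the histone variant H3.3 acts on ESCs and on cells made from them, and used both cultures as differentiated states of its lines. The lines were KH2 mouse ESCs with a single extra copy of a SNAP-HA-tagged H3.3 gene that Dox switches on, either WT-H3.3 or H3.3K27M, in which methionine takes the place of lysine 27. All 8 libraries therefore came from cells that carried the extra gene and had received Dox. RA-treated cells were labelled as neural progenitor cells derived from ESCs and grew for 4 days with 1 µM RA in ESC medium without leukemia inhibitory factor and 2i inhibitors. Dox was added 24 h after the start of RA, so that the 72 h harvest fell at 96 h of RA, while the hours of RA behind the 24 h harvest are not given in the sources used here. OPC cultures were made through embryoid bodies that received RA together with purmorphamine, an activator of Smoothened, and were then plated and kept in a medium for OPCs, for 30 days at most. The age of an OPC culture at its Dox treatment is not given in the sources used here, and no sort for a surface marker is named. Each line was grown from drug-selected colonies, and each culture, line and time has 1 library. The titles give the OPC libraries of 24 h and 72 h different replicate numbers and the RA-treated ones the same number, and no source used here ties each library to its own culture, so p-values measure the spread between these libraries only, which may in part be technical. Culture, age, medium and count table changed together between the sides and cannot be told apart.

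Retinoic acid binds nuclear receptors (RAR with RXR) that sit on direct repeats near their target genes, where it activates among others the enzymes that degrade RA and the 3′ genes of the Hox clusters. Sonic hedgehog (SHH) signalling, which purmorphamine mimics by acting on Smoothened, patterns the ventral neural tube, where Olig2 and Nkx2-2 mark the progenitors of motor neurons and oligodendrocytes. OPCs are known for Olig1, Olig2, Sox10, Pdgfra and Cspg4 (NG2), and RA given to ESCs without other cues can yield neural cells as well as extraembryonic endoderm.

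The libraries held 7499258 to 12387113 counts in OPC cultures and 2239137 to 22269533 in RA-treated cells. The 2 RA-treated libraries of 24 h stood apart from the other 6 libraries. The glycolytic gene Gapdh measured 848 and 853 CPM in them (CPM, counts brought to a common library size with TMM factors), against 142 and 225 CPM in RA-treated cells at 72 h and 59.5 to 101 CPM in OPC cultures. Pseudogenes took 0.0865% and 0.0919% of their counts, against 0.301% to 0.627% in the other 6. The median log2 difference between the cultures also fell with exonic length at 24 h, from 0.733 in the shortest of 4 equal classes of genes to -0.486 in the longest, but not at 72 h (-0.015 and 0.053). The methods name both a 3′ end kit and a kit for whole transcripts without assigning them, and the part of the kit in these differences was not tested. Lists of genes are therefore also given at 72 h alone and without both RA-treated libraries of 24 h, and the counts are those of edgeR where no other tool is named.

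OPC cultures and RA-treated cells differed at a large share of the genes. Of 12422 genes tested, 1560 (12.6%) were higher and 2252 (18.1%) lower in OPC cultures at an adjusted p under 0.05 and a fold change above 2. At 72 h, 19.6% of the genes were called, 1304 (10.5%) higher and 1135 (9.14%) lower, and at 24 h 49.9%, 3121 (25.1%) higher and 3083 (24.8%) lower. Without both RA-treated libraries of 24 h, 1891 of 13251 genes (14.3%) were higher and 1906 (14.4%) lower. The 2 times share no library but came from 1 model. Their OPC libraries were nearly alike, so their calls are not independent. At both times 1001 genes were called higher in OPC cultures, 32.1% of such calls at 24 h and 76.8% at 72 h. Of the genes lower in OPC cultures, 951 were called at both times, 30.8% and 83.8% of the respective calls, and 17 and 10 genes of the 2 directions at 24 h were called the other way at 72 h. All 4 OPC libraries lay above all 4 RA-treated libraries for 19.7% of genes and below them for 19.9%. Spearman's correlation was 0.784 to 0.822 between OPC cultures and RA-treated cells of 72 h and 0.619 to 0.676 against those of 24 h, while the 2 times of a line reached 0.991 to 0.993 in OPC cultures and 0.807 to 0.830 in RA-treated cells.

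**Figure D1:**
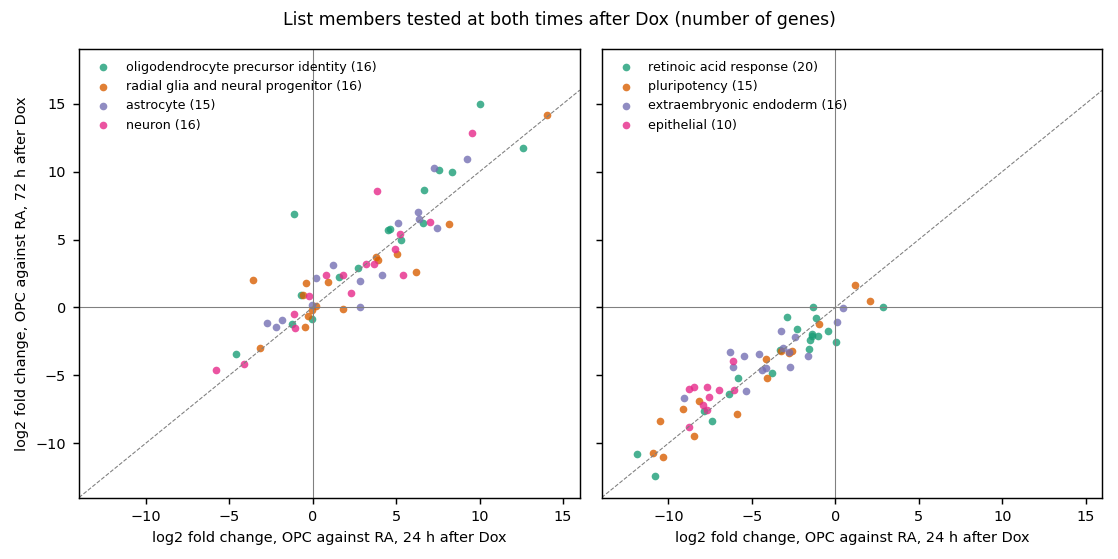
Log2 fold change of OPC cultures against RA-treated cells at 72 h (vertical axis) against 24 h (horizontal axis) after Dox, with a point for each tested member of 4 neural lists (left) and of the RA response, pluripotency, extraembryonic endoderm and epithelial lists (right) and a dashed line where both are equal. Most points on the left lie in the upper right quadrant and nearly all on the right in the lower left, and the points follow the dashed line with some scatter.

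Genes of OPC identity were mostly higher in OPC cultures, with Pdgfra as the exception. Of the 22 genes of this list, 16 passed the filter on low counts, 11 were higher in OPC cultures, 1 was lower and 4 were not called, against 12.6% and 18.1% of all genes. The median log2 difference of the 16 was 4.89, beside -0.08 over all genes tested. At 72 h, 10 were higher and edgeR called 0 lower (1 lower in DESeq2 and 1 at an unadjusted p under 0.05), and without the RA-treated libraries of 24 h, 11 were higher and 1 lower.

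Olig2 (mm9 chr16:91225795-91228922, + strand), the basic helix-loop-helix factor that sets the oligodendrocyte lineage, measured 348 and 297 CPM at 24 and 72 h in WT-H3.3 OPC cultures and 1062 and 1103 CPM in H3.3K27M OPC cultures. In RA-treated cells it measured 0.184 and 0 CPM in WT-H3.3 and 0.124 and 0.338 CPM in H3.3K27M, which is 0 to 3 counts a library. The groups lay far apart, and within OPC cultures both H3.3K27M libraries were the high ones (log2 difference between cultures 12.21 ± 0.53 SE, adjusted p = 3.81e-05). In 8 libraries of the same lines kept as ESCs, at 24 and 72 h after Dox, Olig2 ran from 12.3 to 29.3 CPM (scaled by library size). RA-treated cells were thus below ESCs as well. Olig1, its neighbour and paralogue, ran from 159.9 to 732 CPM in OPC cultures and from 0 to 0.552 CPM in RA-treated cells (10.23 ± 0.73, adjusted p = 0.00012). Ptprz1, a receptor phosphatase of glial progenitors, spanned 214 to 603 CPM against 0.338 to 1.2 CPM (8.72 ± 0.46, adjusted p = 5.12e-05). Bcan, which codes for the proteoglycan brevican, spanned 109 to 323 CPM against 0 to 1.28 CPM (8.01 ± 0.55, adjusted p = 0.000102). For these 4 genes both H3.3K27M OPC libraries were above both WT-H3.3 OPC libraries.

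Cspg4, the NG2 proteoglycan of OPCs, showed the same order of lines. It measured 8.99 and 11.2 CPM in WT-H3.3 and 79.4 and 107 CPM in H3.3K27M OPC cultures, against 0 to 1.92 CPM in RA-treated cells (4.78 ± 1.06, adjusted p = 0.0117). At 72 h alone the difference was 5.70 ± 1.65 with an adjusted p of 0.0549, which missed the threshold. Pdgfra, the receptor for the growth factor that keeps OPCs dividing, went the other way. It measured 16.3 and 25.1 CPM in WT-H3.3 OPC cultures and 0.613 and 0.86 CPM in H3.3K27M OPC cultures, against 159.5 and 76.3 CPM in WT-H3.3 and 90.1 and 65.1 CPM in H3.3K27M RA-treated cells. All OPC libraries were below all RA-treated ones, the H3.3K27M OPC libraries by far the most (-4.29 ± 0.91, adjusted p = 0.00966; at 72 h alone -3.41 ± 1.21, adjusted p = 0.0927). Pdgfra is also a gene of primitive endoderm and mesenchyme, and its level in RA-treated cells stood beside high levels of extraembryonic endoderm genes given further on.

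The label of the OPC cultures held only in part against the markers. Sox10, the factor that follows Olig2 in the lineage, stayed at 0.153 to 3.65 CPM in OPC cultures and at 0 to 1.65 CPM in RA-treated cells (adjusted p = 0.921). Gpr17, Neu4 and Pcdh15 were below the filter. Of 20 myelin and mature oligodendrocyte genes 10 were tested (median -0.11). In OPC cultures 3 were higher and 3 lower, against 12.6% and 18.1% of all genes. At 72 h 2 were higher and 2 lower, against 10.5% and 9.14%, and without the RA-treated libraries of 24 h 3 and 3. The myelin genes Mag and Mog were below the filter. Mbp, which codes for myelin basic protein, measured 0.574 to 2.65 CPM in OPC cultures and was higher in RA-treated cells, at 10.1 to 20.4 CPM (-3.42 ± 0.48, adjusted p = 0.00174). Bcas1, a gene of early oligodendrocytes, measured 8.26 and 14.2 CPM in WT-H3.3 and 102 and 96.8 CPM in H3.3K27M OPC cultures, with 3 counts in all in RA-treated cells. Counts summed over a culture, divided by its summed library sizes, gave a ratio of 539.9 between the cultures (exact 95% counting interval 184 to 2621). Ratios with counting intervals given for other genes were formed alike. A deep library weighs more in them than in a mean of CPM. In bulk RNA, fewer cells of a type and less RNA per cell cannot be told apart, so these levels do not say which share of the cells was of the oligodendrocyte lineage.

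**Figure D2:**
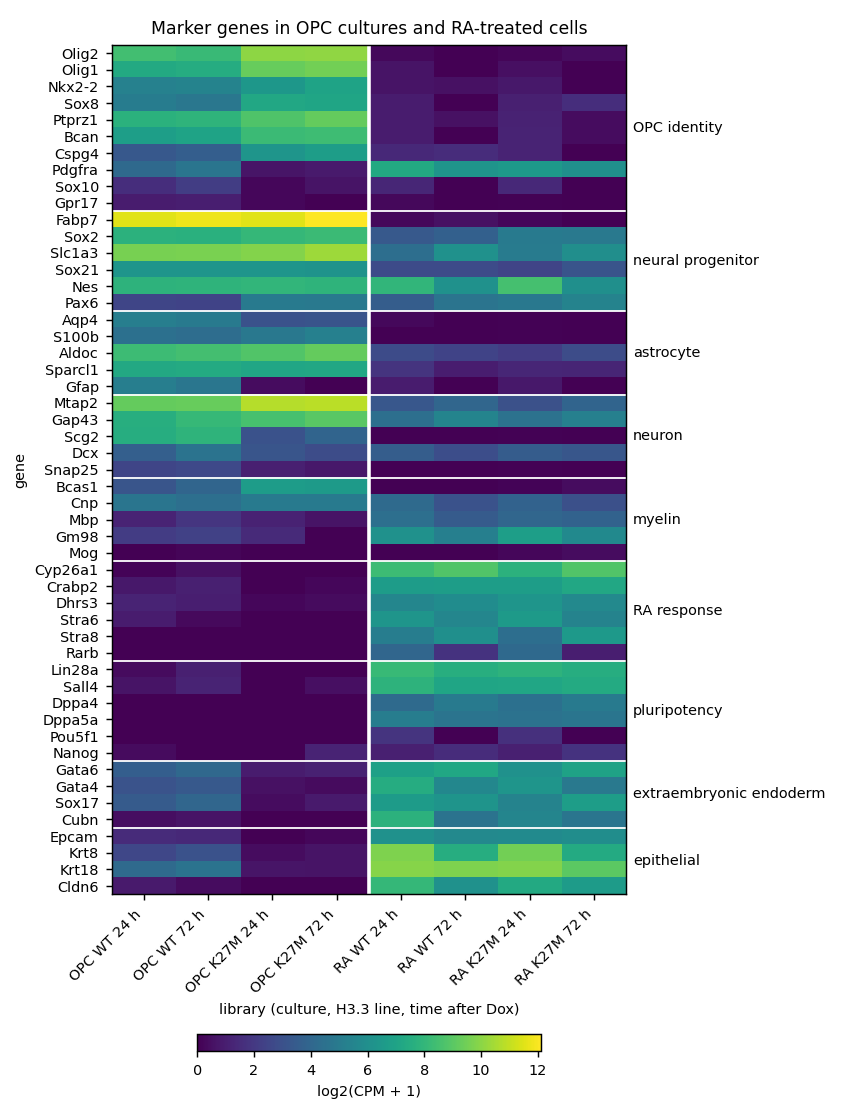
Heat map of marker genes (rows, grouped by list) in the 8 libraries (columns), coloured by log2(CPM + 1), with a white line between OPC cultures and RA-treated cells. Olig2, Ptprz1, Bcan and Fabp7 are bright in the OPC libraries and dark in the RA-treated ones, and Cyp26a1, Lin28a, Krt8 and Krt18 the reverse, while Pdgfra is brighter in RA-treated cells and Sox10, Gpr17 and Mog are dark throughout.

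Several radial glia and astrocyte genes were higher in OPC cultures too. Of 18 neural progenitor genes 16 were tested, 6 higher and 1 lower in OPC cultures (median 0.44), against 12.6% and 18.1% of all genes. Without the RA-treated libraries of 24 h 8 were higher and 2 lower. At 72 h edgeR called 8 higher and 0 lower, with 2 lower in DESeq2 and 2 at an unadjusted p under 0.05. Fabp7, the fatty acid binding protein of radial glia, reached 3041 and 3492 CPM in WT-H3.3 and 2985 and 4389 CPM in H3.3K27M OPC cultures. RA-treated cells held 0 to 0.48 CPM (14.14 ± 0.67, adjusted p = 3.81e-05). Sox2, a factor of neural progenitors and of ESCs, measured 207 to 299 CPM in OPC cultures and 9.38 to 30.3 CPM in RA-treated cells (3.78 ± 0.30, adjusted p = 0.000181). The glutamate transporter gene Slc1a3 measured 782 to 1278 against 19.7 to 68.6 CPM (4.37 ± 0.48, adjusted p = 0.000664). Nes, the progenitor filament nestin, was not called over both times (225 to 248 against 64.8 to 372 CPM, adjusted p = 0.68) and was higher in OPC cultures at 72 h (1.77 ± 0.22, adjusted p = 0.00509) and without the RA-treated libraries of 24 h (1.79, adjusted p = 0.000316). Pax6, a factor of neural progenitors, was not called over both times (4.77 and 4.42 CPM in WT-H3.3 and 30.4 and 28.4 CPM in H3.3K27M OPC cultures, 10.8 to 41.8 CPM in RA-treated cells, adjusted p = 0.105), and was lower in OPC cultures without the RA-treated libraries of 24 h (-1.43, adjusted p = 0.0307). Hes5, a Notch target of neural progenitors, measured 10.3 to 80 CPM in OPC cultures and 0 to 1.01 CPM in RA-treated cells. RA-treated cells thus held few or no counts of Fabp7 and Hes5, against their label of neural progenitors, but Pax6 was above its ESC levels. In the 8 libraries of the same lines kept as ESCs, at 24 and 72 h after Dox, Pax6 reached 2.47 CPM at most. Nes had an ESC median of 71.6 CPM and a maximum of 91 CPM. Its levels in RA-treated cells were near that median at 72 h (69.6 and 64.8 CPM) and above that maximum at 24 h (250 and 372 CPM). The ESC levels are scaled by library size in a separate table.

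Of 18 astrocyte genes 15 were tested, 9 higher and 2 lower in OPC cultures (median 2.30), against 12.6% and 18.1% of all genes. Both at 72 h and without the RA-treated libraries of 24 h 8 were higher and 1 lower. Aldoc, the brain aldolase, measured 315 to 599 CPM in OPC cultures and 3.47 to 6.07 CPM in RA-treated cells (6.43 ± 0.37, adjusted p = 6.31e-05). Sparcl1, a matrix protein secreted by astrocytes, measured 141 to 167 against 0.96 to 2.58 CPM (6.54 ± 0.32, adjusted p = 3.89e-05). For both genes every OPC library was far above every RA-treated one. Aqp4, the water channel of astrocyte endfeet, measured 35.4 and 30.5 CPM in WT-H3.3 and 7.2 and 7.89 CPM in H3.3K27M OPC cultures, with 2 counts in all in RA-treated cells, a ratio of 396 (exact 95% counting interval 109 to 3274). Gfap, the astrocyte filament, was below the filter, at 35.2 and 25.7 CPM in WT-H3.3 OPC cultures and 0.306 and 0 CPM in H3.3K27M OPC cultures. Without the RA-treated libraries of 24 h the filter asks for fewer libraries, and Gfap passed through the WT-H3.3 OPC ones. Its call there (adjusted p = 0.00426) is therefore not taken as a difference between the cultures. Gja1, which codes for connexin 43, was lower in OPC cultures (119 to 134 against 335 to 669 CPM, -1.87 ± 0.30, adjusted p = 0.00286).

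Neuron genes were split. Of 23 such genes 16 were tested, 9 higher and 3 lower in OPC cultures (median 2.69), against 12.6% and 18.1% of all genes. At 72 h 8 were higher and 3 lower, and without the RA-treated libraries of 24 h 10 and 2. Mtap2, the microtubule protein MAP2 that OPCs can also express, measured 599 and 622 CPM in WT-H3.3 and 1697 and 1828 CPM in H3.3K27M OPC cultures, against 7.07 to 14.9 CPM in RA-treated cells (6.58 ± 0.55, adjusted p = 0.000222). Scg2, a granin of neuroendocrine vesicles, measured 186 and 234 CPM in WT-H3.3 and 7.36 and 14.1 CPM in H3.3K27M OPC cultures and a single count in all in RA-treated cells, a ratio of 4448 (exact 95% counting interval 798 to 175700). Dcx, a marker of young neurons, was not called (6.02 to 23.4 against 6.24 to 11 CPM, adjusted p = 0.645), and Snap25, Gad1, Gad2 and Slc17a6, genes of synapses and transmitters, were below the filter. Without the RA-treated libraries of 24 h the filter asks for fewer libraries. Snap25 and Gad1 then passed it and were called higher (adjusted p = 0.00974 and 0.0383). Snap25 measured 4.86 and 5.3 CPM in WT-H3.3 and 1.07 and 0.717 CPM in H3.3K27M OPC cultures. These calls are not taken as a difference between the cultures. Nefh, the heavy neurofilament, was lower in OPC cultures (0.143 to 0.734 against 6.07 to 8.46 CPM, -4.22 ± 0.50, adjusted p = 0.000827).

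Most RA response genes were higher in RA-treated cells, and the strongest of them were close to absent in OPC cultures, although the OPC protocol also included RA at its start. Cyp26a1 and Rarb are shown with the DNA before their start site because that window holds a textbook binding element of the RA receptors. The element was searched as 2 core sites in the same orientation with a spacer of 5 bases. Each core read AGGTCA or 1 of the variants AGTTCA and GGTTCA and GGGTCA. The search covered both strands of the 250 bases before each start in the RefSeq promoters of GRCm38.p6. It was found in 29 of 32851 promoters (0.0883%), and in 2 of the 15 genes of the RA list that had a promoter entry, of 22. A match is a description of the letters, not a measured binding site. In each sequence, written 5′ to 3′ on the strand of the gene and ending at the base before the start, the capitals mark the match.
Cyp26a1 (GRCm38.p6 chr19:37697558-37697807, + strand; the repeat reads on the opposite strand and lies 32 to 16 bases before the start): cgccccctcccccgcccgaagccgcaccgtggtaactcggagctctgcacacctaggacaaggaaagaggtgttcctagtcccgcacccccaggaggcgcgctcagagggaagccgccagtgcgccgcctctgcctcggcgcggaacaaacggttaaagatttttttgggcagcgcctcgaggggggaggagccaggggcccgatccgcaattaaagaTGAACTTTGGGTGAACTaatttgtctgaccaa
Rarb (GRCm38.p6 chr14:16575477-16575726, - strand; the repeat reads on the strand of the gene and lies 53 to 37 bases before the start): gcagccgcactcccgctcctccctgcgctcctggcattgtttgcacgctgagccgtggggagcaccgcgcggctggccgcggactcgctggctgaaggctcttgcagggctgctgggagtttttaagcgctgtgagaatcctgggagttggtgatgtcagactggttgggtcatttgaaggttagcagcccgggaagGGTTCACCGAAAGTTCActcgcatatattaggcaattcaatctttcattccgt

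Cyp26a1, the enzyme that degrades RA, measured 0.0918 and 0.442 CPM in WT-H3.3 OPC cultures and 0 and 0 CPM in H3.3K27M OPC cultures. RA-treated cells held 316 and 457 CPM in WT-H3.3 and 215 and 444 CPM in H3.3K27M. No OPC library came near the RA-treated ones (-11.22 ± 0.77, adjusted p = 0.000102), and at 72 h alone the difference was -10.82 ± 0.61 (adjusted p = 0.0011). Rarb, the RA receptor beta, had no count in any OPC library and measured 14.9 and 16.3 CPM at 24 h but 2.4 and 1.01 CPM at 72 h in WT-H3.3 and H3.3K27M RA-treated cells, a mean at least 23.1-fold above the floor of 3 counts a library. Rarb did not pass the filter and was not tested.

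Of the 22 RA response genes 20 were tested, none was higher and 14 were lower in OPC cultures, against 12.6% and 18.1% of all genes (median -2.19). At 72 h, none was higher and 13 were lower, and without the RA-treated libraries of 24 h, none and 16. Over both times and at 72 h no gene was higher at an unadjusted p under 0.05 either (0 in edgeR, 0 called in DESeq2). At 24 h 1 was called higher and 14 lower, against 25.1% and 24.8% of all genes. Stra8, induced by RA on the way to meiosis, had no count in OPC cultures and 34.2 and 64.8 CPM in WT-H3.3 and 19.5 and 90.8 CPM in H3.3K27M RA-treated cells, at least 139.8-fold higher there. Crabp2, which carries RA to the nucleus, measured 0 to 1.1 CPM in OPC cultures and 101 to 151 CPM in RA-treated cells (-7.88 ± 0.73, adjusted p = 0.000326). Dhrs3, a retinal reductase induced by RA, measured 0.153 to 1.28 against 46.5 to 77.2 CPM (-6.46 ± 0.59, adjusted p = 0.000308), and Stra6, the receptor for the retinol carrier, 0 to 0.918 against 42.2 to 94.6 CPM (-7.76 ± 0.89, adjusted p = 0.00074). The 6 tested genes that were not called were Cyp26b1, Crabp1, Rara, Rarg, Meis1 and Nr2f1. Nr2f1 (COUP-TF1) measured 339.9 to 461 CPM in OPC cultures, 338 and 432 CPM in RA-treated cells at 72 h and 34.2 and 71.3 CPM at 24 h, and Meis1 was lower in OPC cultures by less than the required fold (-0.97 ± 0.20, adjusted p = 0.00861). The names of these 6 were chosen after seeing their values.

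Nkx6-1, a homeodomain factor of ventral progenitors, was higher in OPC cultures, at 187 to 392 CPM against 1.1 to 3.84 CPM (6.73 ± 0.43, adjusted p = 8.25e-05), as was Nkx2-2 of the OPC list, named once its values were known, at 39 to 130.3 against 0 to 0.745 CPM (7.07 ± 0.58, adjusted p = 0.00022). Of the 16 genes of SHH targets and ventral neural factors 12 were tested, 1 was higher and 8 were lower in OPC cultures, against 12.6% and 18.1% of all genes (median -2.39). At 72 h 1 was higher and 5 were lower, against 10.5% and 9.14%, and without the RA-treated libraries of 24 h 2 and 7. The 8 became 5 without the WT-H3.3 OPC library of 24 h, and the 1 became 2 without the H3.3K27M RA-treated library of 24 h. Gli1, the direct target that reports SHH activity, measured 0.0918 and 0.552 CPM in WT-H3.3 and 0 and 0 CPM in H3.3K27M OPC cultures, against 18.4 and 7.2 CPM in WT-H3.3 and 20.4 and 8.77 CPM in H3.3K27M RA-treated cells (-6.32 ± 0.92, adjusted p = 0.00208). Both H3.3K27M OPC libraries had no Gli1 count, and every RA-treated library was above every OPC library. In the ESC libraries Gli1 ran from 9.91 to 25.6 CPM (scaled by library size), and no RA-treated library was above that range. The transcription factor genes Gli2 and Gli3 were lower in OPC cultures as well, at 2.58 to 5.41 against 24.5 to 77 CPM for Gli2 (-3.46 ± 0.45, adjusted p = 0.0013) and 16.7 to 25.7 against 102 to 250.5 CPM for Gli3 (-3.10 ± 0.39, adjusted p = 0.00112). Ptch1, the SHH receptor and also its target, was not called (48.4 to 85.1 against 63.5 to 102 CPM, -0.40 ± 0.23, adjusted p = 0.203). Shh itself, named likewise, was below the filter, at 71.9 and 45.1 CPM in WT-H3.3 and 0.92 and 0 CPM in H3.3K27M OPC cultures and 0.675 to 3.5 CPM in RA-treated cells. It was called higher without the RA-treated libraries of 24 h (adjusted p = 0.0313), where the filter asks for fewer libraries. As only the WT-H3.3 OPC libraries were high, that call is not taken as a difference between the cultures. Foxa2, a floor plate and endoderm gene, was lower in OPC cultures (6.44 to 39.9 against 16.9 to 136 CPM, -2.19 ± 0.72, adjusted p = 0.0483), a call that was lost when any of the 4 OPC libraries or the WT-H3.3 RA-treated library of 72 h was left out (log2 difference -2.36 to -1.88).

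Hox genes, which give cells their position along the body axis, were called in both directions, also within the Hoxa and Hoxb clusters. Of 38 Hox genes 27 were tested, 5 were higher and 13 lower in OPC cultures, against 12.6% and 18.1% of all genes (median -1.53). At 72 h 3 were higher and 13 lower, against 10.5% and 9.14%, and without the RA-treated libraries of 24 h 4 and 15, against 14.3% and 14.4%. In the Hoxb cluster, Hoxb6 measured 67.3 to 116 CPM in OPC cultures and 13.2 to 45.2 CPM in RA-treated cells (1.91 ± 0.40, adjusted p = 0.00908), Hoxb7 57.1 to 81.5 against 9.2 to 30.7 CPM (1.84 ± 0.40, adjusted p = 0.0105) and Hoxb8 108 to 164 against 19.3 to 43.3 CPM (1.87 ± 0.26, adjusted p = 0.00179). These 3 neighbours were higher in OPC cultures at both times and their groups did not overlap. Hoxb1, a direct RA target at the 3′ end of the cluster, had a single count in all OPC libraries and 18.4 and 34.5 CPM in WT-H3.3 and 21.1 and 46.9 CPM in H3.3K27M RA-treated cells, a ratio of 793 (exact 95% counting interval 142 to 31370).

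Tested Hoxc genes were lower in OPC cultures, Hoxc6 excepted. Hoxc8 measured 0.287 to 1.1 CPM in OPC cultures and 31.6 to 101 CPM in RA-treated cells (-6.72 ± 0.62, adjusted p = 0.000324), and Hoxc9 0 to 1.47 against 23 to 178 CPM (-7.09 ± 1.09, adjusted p = 0.00255). Hoxc4 (-5.45 ± 0.95), Hoxc5 (-5.65 ± 0.93) and Hoxc13 (-4.92 ± 0.77) were lower too. Hoxc10 had a single count in all OPC libraries and was higher in RA-treated cells by a ratio of 211 (exact 95% counting interval 37.5 to 8385). Hoxc6 was not called at 0.86 to 12.2 against 6.81 to 24.9 CPM (adjusted p = 0.097), but was without the WT-H3.3 RA-treated library of 24 h (-2.92), and Hoxc11 and Hoxc12 were below the filter. For Hoxc4, Hoxc5, Hoxc8 and Hoxc9 both RA-treated libraries of 72 h were above both of 24 h.

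In the Hoxd cluster, Hoxd13 was lower in OPC cultures (0 to 0.183 against 3.04 to 5.76 CPM, adjusted p = 0.000671), with 3 counts in all there and a ratio of 51.8 (exact 95% counting interval 17.4 to 254) in favour of RA-treated cells. Hoxa4 and Hoxb13 were lower as well (-4.69 ± 0.80 and -3.78 ± 0.50, adjusted p = 0.00402 and 0.00141), while Hoxa10, Hoxb3, Hoxb4, Hoxb5, Hoxb9 and Hoxd8 were called at neither setting of time, and Hoxa5 and Hoxa9 at 72 h only (-1.12 ± 0.23 and -1.38 ± 0.31, adjusted p = 0.0222 and 0.029). Hoxa2 was higher in OPC cultures over both times (adjusted p = 0.00668) but not called at 72 h (adjusted p = 0.0565). The calls of Hoxa7 (adjusted p = 0.0376), Hoxb2 (-2.60 ± 0.78, adjusted p = 0.0354) and Hoxd9 (-1.53 ± 0.39, adjusted p = 0.0196) rested on single libraries. Hoxa7 lost its call without any library but the WT-H3.3 RA-treated one of 72 h (1.13 to 1.71), Hoxb2 without either H3.3K27M OPC library, the WT-H3.3 OPC library of 72 h or either RA-treated library of 24 h (-2.63 to -1.82), and Hoxd9 without either WT-H3.3 OPC library, the H3.3K27M OPC library of 72 h or the H3.3K27M RA-treated library of 24 h (-1.58 to -1.38). Of the 38 genes 21 had a promoter entry, and none of these held the direct repeat of RA receptors searched above.

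**Figure D3:**
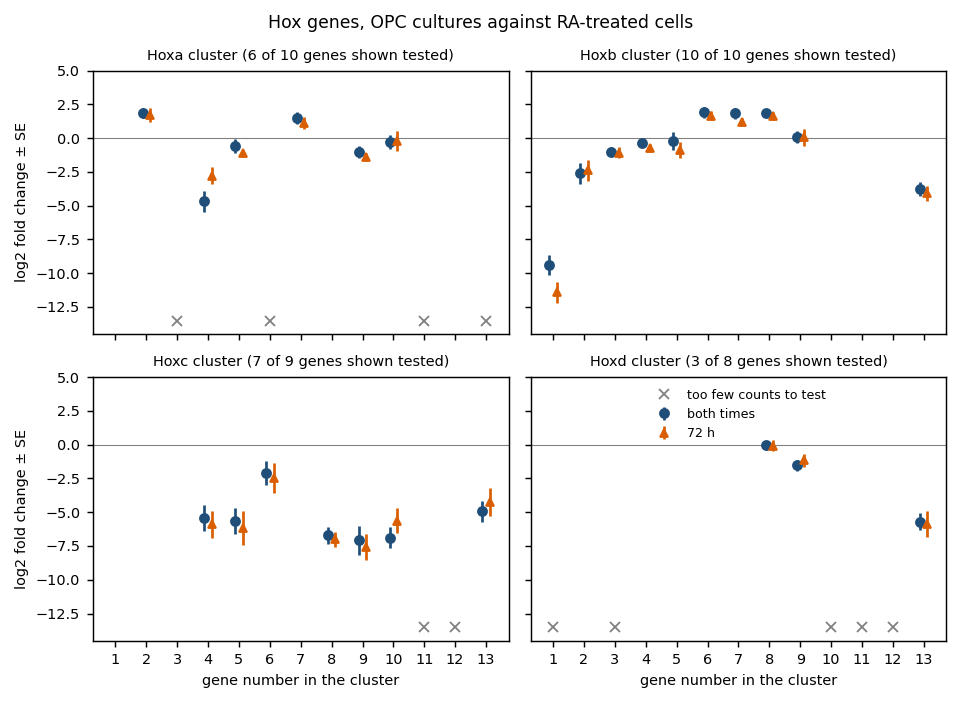
Log2 fold change ± SE of OPC cultures against RA-treated cells for Hox genes, 1 panel a cluster, by gene number, with circles for both times, triangles for 72 h and crosses for genes with too few counts to test. Hoxb6, Hoxb7 and Hoxb8 lie above 0 (1.91, 1.84 and 1.87 over both times), every tested Hoxc gene lies below 0, and Hoxb1 lies lowest.

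Most tested pluripotency genes were lower in OPC cultures than in RA-treated cells. Of 24 such genes 15 were tested, none was higher and 12 were lower in OPC cultures, against 12.6% and 18.1% of all genes. Their median was -4.64, or -4.37 with genes that had no OPC count at their bound. At 72 h none was higher and 9 were lower, and without the RA-treated libraries of 24 h none and 12. DESeq2 called none higher and none was at an unadjusted p under 0.05 (0 genes). Pou5f1 (Oct4), the core factor of pluripotency, had no count in OPC cultures and measured 2.58 and 2.23 CPM at 24 h and 0 and 0 CPM at 72 h in RA-treated cells. The 8 libraries of the same 2 lines kept as ESCs, at 24 and 72 h after Dox, held a median of 510 CPM, a level scaled by library size in a separate table. Nanog was below the filter, at 0 to 1.29 CPM in OPC cultures and 1.1 to 2.36 CPM in RA-treated cells, against an ESC median of 1183 CPM. Lin28a, which codes for an RNA-binding protein of early embryonic cells, measured 0.275 and 1.1 CPM in WT-H3.3 and 0 and 0 CPM in H3.3K27M OPC cultures and 186 to 287 CPM in RA-treated cells (-9.39 ± 0.83, adjusted p = 0.000259), near the ESC median of 201 CPM. Sall4 measured 0 to 1.33 against 139 to 227 CPM (-8.24 ± 0.66, adjusted p = 0.000195). Dppa4 and Dppa5a had no count in OPC cultures and 17.3 to 30.7 and 22.6 to 33.9 CPM in RA-treated cells, at least 65.5-fold and 70.7-fold higher there, and both were named once their values were known. The 3 tested genes that were not called were Esrrb, Klf4 and Nr5a2. Esrrb, a naive pluripotency factor, measured 1.74 and 1.55 CPM in WT-H3.3 and 17.2 and 14.9 CPM in H3.3K27M OPC cultures and 1.35 to 3.19 CPM in RA-treated cells (adjusted p = 0.226), and Nr5a2, named after its values were seen, had the same order, at 0.275 and 0.331 and 8.12 and 8.75 CPM against 0.552 to 2.02 CPM (adjusted p = 0.488).

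Extraembryonic endoderm and epithelial genes were high in RA-treated cells. Of 23 extraembryonic endoderm genes 16 were tested, none was higher and 13 were lower in OPC cultures (median -4.11). The shares of all genes were 12.6% and 18.1%. At 72 h none was higher and 9 were lower, and without the RA-treated libraries of 24 h none and 13. At an unadjusted p under 0.05 0 were higher, and DESeq2 called 0 higher. Gata6, a factor of primitive endoderm, measured 11.1 and 16.1 CPM in WT-H3.3 and 0.92 and 1.15 CPM in H3.3K27M OPC cultures, against 116 and 149 CPM in WT-H3.3 and 69.1 and 125 CPM in H3.3K27M RA-treated cells (-4.71 ± 0.73, adjusted p = 0.00263). Sox17, a partner factor of endoderm, measured 10.2 and 14.9 and 0.306 and 0.86 CPM against 41.9 to 105 CPM (-4.52 ± 0.92, adjusted p = 0.00836). For both genes the groups did not overlap, and the WT-H3.3 OPC libraries lay between the H3.3K27M OPC libraries and the RA-treated cells. Cubn and Lrp2, which code for the endocytic receptors cubilin and megalin of yolk sac and other absorptive epithelia, measured 0 to 0.552 and 3.3 to 10.4 CPM in OPC cultures and 23 to 217 and 123 to 452 CPM in RA-treated cells (-8.43 ± 0.97 and -5.50 ± 0.54, adjusted p = 0.000757 and 0.00042). Afp, a yolk sac product, was below the filter at 0.248 to 2.36 CPM in RA-treated cells. The summed level of all 23 members, with the 3 on chromosome 8, was 4498 and 4375 CPM in WT-H3.3 and 1207 and 987 CPM in H3.3K27M OPC cultures. RA-treated cells held 5392 to 16830 CPM, so the groups did not overlap.

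All 10 tested genes of the 16 epithelial genes were lower in OPC cultures (median -7.39), against 18.1% of all genes. They were also lower at each time and without the RA-treated libraries of 24 h. Krt18, a keratin of simple epithelia, measured 17.4 and 23.8 CPM in WT-H3.3 and 0.613 and 0.574 CPM in H3.3K27M OPC cultures and 529 to 947 CPM in RA-treated cells (-7.49 ± 1.12, adjusted p = 0.00226). Its partner Krt8 was at 0.306 to 7.18 CPM in OPC cultures, 867 and 737 CPM in RA-treated cells at 24 h and 183 and 170.1 CPM at 72 h (-7.84 ± 1.10, adjusted p = 0.00175). Epcam, an adhesion molecule of epithelia and ESCs, measured 0 to 1.83 against 51.3 to 67.5 CPM (-6.32 ± 0.79, adjusted p = 0.00111), and the claudin gene Cldn6 0 to 0.826 against 67.7 to 267 CPM (-8.97 ± 0.89, adjusted p = 0.000426). The part of such cells in the lower RA response, pluripotency and Hox levels of OPC cultures was not tested.

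Markers of further cell types gave smaller or mixed counts. Shares of all genes to set beside them were 12.6% higher and 18.1% lower over both times, and 10.5% and 9.14% at 72 h. Of 28 fibroblast and matrix genes 25 were tested, with 3 higher and 3 lower in OPC cultures (median -0.97), and 6 higher and 4 lower without the RA-treated libraries of 24 h. Over both times DESeq2 called 4 higher and 6 lower, and without the H3.3K27M RA-treated library of 24 h edgeR called 5 higher. At 72 h edgeR called 3 higher and 0 lower, DESeq2 5 and 3, and 6 and 3 were at an unadjusted p under 0.05. Of 18 neural crest and Schwann cell genes 14 were tested, with 3 higher, among them Fabp7 of the progenitor list, and 6 lower (median -2.42), at 72 h 2 and 5, and without the RA-treated libraries of 24 h 3 and 7. Msx1, a homeobox gene of crest and dorsal neural tube, measured 0.92 to 6.79 against 67.3 to 177 CPM (-4.99 ± 0.65, adjusted p = 0.00132), and Erbb3, a neuregulin receptor, 0.143 to 0.884 against 19.2 to 48.4 CPM (-6.02 ± 0.57, adjusted p = 0.000352). The neural crest gene Foxd3 was below the filter. Of 14 endothelial genes 7 were tested and 3 were lower, led by the VEGF receptor gene Flt1 (0 to 15.9 against 48.4 to 175 CPM, -5.20 ± 0.97, adjusted p = 0.00571), and 3 were lower at 72 h and without the RA-treated libraries of 24 h, while the endothelial gene Pecam1 was not called (adjusted p = 0.487). Of 14 macrophage genes 2 passed the filter, Cd68 and Laptm5, both lower in OPC cultures over both times and neither called at 72 h by edgeR (1 at an unadjusted p under 0.05) or DESeq2 (0), with 2 lower without the RA-treated libraries of 24 h. Cd68 lost its call without either OPC library of 24 h or the H3.3K27M OPC library of 72 h (-1.90 to -1.73), with Cx3cr1, Aif1 and Tyrobp below the filter. Of 16 muscle genes 5 were tested and all were lower in OPC cultures at both times and without the RA-treated libraries of 24 h (median -6.87, or -5.95 with genes that had no OPC count at their bound), among them the desmin gene Des (0.306 to 0.663 against 21.3 to 44.1 CPM, -5.95 ± 0.40, adjusted p = 9.37e-05) and the heart factor Nkx2-5, with no count in OPC cultures and 4.8 to 11.2 CPM in RA-treated cells (at least 17.6-fold). The skeletal muscle factors Myod1 and Myog were below the filter. Of 19 chemokine and cytokine genes 6 were tested, with 2 higher and 1 lower in OPC cultures (median 0.31), at 72 h and without the RA-treated libraries of 24 h 1 and 1, and 0 higher without the WT-H3.3 OPC library of 24 h.

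Fewer cell cycle genes were called at 72 h than over both times, and their counts rested on single libraries. Calls over all genes fell too, from 18.1% to 9.14% lower and from 12.6% to 10.5% higher. Of 29 DNA replication genes 24 were tested, none was higher and 8 were lower in OPC cultures (median -1.06), but at 72 h 1 was lower (15 at an unadjusted p under 0.05 and 7 in DESeq2) and without the RA-treated libraries of 24 h 12 were. Without 1 library the count ran from 3 (WT-H3.3 OPC library of 72 h) to 11 (H3.3K27M RA-treated library of 72 h). All 26 mitosis genes were tested, with none higher and 6 lower (median -0.98), the 6 being near the 18.1% of all genes. Without the RA-treated libraries of 24 h 7 were lower. At 72 h edgeR called 0 in either direction, with 3 lower at an unadjusted p under 0.05 and 1 lower in DESeq2. Without 1 library the 6 became 0 (WT-H3.3 OPC library of 24 h) to 12 (H3.3K27M RA-treated library of 72 h). Mki67, the proliferation marker, measured 26.2 and 33.2 CPM in WT-H3.3 and 93.2 and 90.3 CPM in H3.3K27M OPC cultures, 466 and 422 CPM in RA-treated cells at 24 h and 64.3 and 47.6 CPM at 72 h (adjusted p = 0.073), and was called lower without either RA-treated library of 72 h (-2.81 and -2.49). Kif20a, a mitotic kinesin, was lower in OPC cultures (log2 difference -5.20, adjusted p = 0.0306), and without the RA-treated libraries of 24 h the difference was 0.02. Its call was also lost without any OPC library or either RA-treated library of 24 h (-5.51 to -3.37). G1 genes were split, with 5 of 14 tested higher and 5 lower (median 0.50), at 72 h 5 and 1, without the RA-treated libraries of 24 h 6 and 4, and 1 lower without the WT-H3.3 OPC library of 24 h. Ccnd2 and Ccnd1, the D-type cyclins, were higher in OPC cultures, at 4577 to 7388 against 271 to 869.9 CPM for Ccnd2 (3.36 ± 0.50, adjusted p = 0.00222) and 280.2 to 512 against 18.2 to 45.3 CPM for Ccnd1 (3.51 ± 0.39, adjusted p = 0.000671). The inhibitor genes Cdkn1a and Cdkn1b were higher as well (1.55 ± 0.33 and 1.14 ± 0.23, adjusted p = 0.00996 and 0.00859), and the imprinted inhibitor gene Cdkn1c was lower (-3.32 ± 0.51, adjusted p = 0.0025).

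Polycomb genes, whose products write and read the histone mark that H3.3K27M is known to impair, were called at shares near those of all genes over both times. Of 24 genes of PRC2, PRC1 and the H3.3 system, 2 were higher and 6 lower in OPC cultures, against 12.6% and 18.1% of all genes (median -0.45). At 72 h 1 was higher and 7 were lower, against 10.5% and 9.14%, and without the RA-treated libraries of 24 h 2 and 7. Cbx7, a reader of the mark in PRC1 of ESCs, measured 3.15 to 5.96 CPM in OPC cultures, 206 and 265 CPM in RA-treated cells at 24 h and 84.5 and 83.7 CPM at 72 h (-5.28 ± 0.54, adjusted p = 0.000456). Cbx2 was lower too (6.15 to 28.2 against 62.4 to 83.5 CPM, -2.49 ± 0.38, adjusted p = 0.00243), as was the PRC2 partner gene Mtf2 (24.4 to 42 against 101 to 131 CPM, -1.92 ± 0.21, adjusted p = 0.000589). The methyltransferase genes Ezh2 and Ezh1 were not called (adjusted p = 0.169 and 0.437), with Ezh2 at 52.2 and 68.4 CPM in WT-H3.3 and 179 and 189 CPM in H3.3K27M OPC cultures and 140.2 to 198 CPM in RA-treated cells. H3f3a and H3f3b, the endogenous H3.3 genes, were not called either (adjusted p = 0.131 and 0.719). H3f3b measured 1168 to 1647 CPM in OPC cultures and 610.4 to 1848 CPM in RA-treated cells, and whether reads of the transgene count toward these genes is not given in the sources used here.

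Imprinted and oncofetal growth genes were mostly lower in OPC cultures. Among 16 tested genes 1 was higher and 10 were lower (median -2.93), against 12.6% and 18.1% of all genes. At 72 h 1 was higher and 7 were lower, and without the RA-treated libraries of 24 h 1 and 11. H19, the imprinted noncoding RNA, measured 108 and 169 CPM in WT-H3.3 and 9.35 and 5.3 CPM in H3.3K27M OPC cultures and 702 to 1610 CPM in RA-treated cells (-5.10 ± 0.89, adjusted p = 0.00443). Igf2, its neighbour, was below the filter, with no count in OPC cultures and 17.7 and 23.6 CPM at 24 h in RA-treated cells but 0 and 0.338 CPM at 72 h. Igf2bp1, an RNA-binding protein gene of embryonic growth, measured 22.9 to 33.4 against 654 to 1239 CPM (-5.02 ± 0.37, adjusted p = 0.000139), and Lin28b 0.642 to 5.45 against 106 to 191 CPM (-6.01 ± 0.51, adjusted p = 0.000234). Ndn, the necdin gene of neurons, was the exception (96.3 to 125 against 41.8 to 56.5 CPM, 1.25 ± 0.19, adjusted p = 0.00245).

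The genes of the lowest adjusted p were taken among called genes with a symbol whose groups did not overlap. They were mostly glial on one side and embryonic or epithelial on the other. Higher in OPC cultures beside Olig2 and Fabp7 were Gpm6b, which codes for a glial membrane glycoprotein, Hepacam and Mlc1, whose products form a complex at astrocyte junctions, Acsbg1, Dner, Nav3, Ppargc1a and 2610017I09Rik. Gpm6b measured 742 to 1072 CPM in OPC cultures and 1.1 to 2.7 CPM in RA-treated cells (8.74 ± 0.39, adjusted p = 3.81e-05), Hepacam 62.6 to 108 against 0 to 0.338 CPM (8.87 ± 0.41, adjusted p = 3.81e-05) and Mlc1 153 to 209 against 0 to 0.165 CPM (10.63 ± 0.51, adjusted p = 3.81e-05). All 10 were called at both times. On the other side stood Wnt6, Prtg, Igdcc3, Nr6a1, Cldn7, Folr1, Mdk, Cldn4, Emb and Des, also called at both times. Wnt6, a Wnt ligand of epithelia, measured 0.275 to 0.46 CPM in OPC cultures and 58.3 to 105 CPM in RA-treated cells (-7.48 ± 0.38, adjusted p = 4.92e-05). Nr6a1, the germ cell nuclear factor that silences Pou5f1, measured 5.23 to 5.52 against 110 to 219 CPM (-4.88 ± 0.29, adjusted p = 7.61e-05), and Mdk, the growth factor midkine known as an RA-responsive gene, 31 to 43.6 against 689 to 1039 CPM (-4.59 ± 0.29, adjusted p = 8.25e-05). That the groups of these 3 genes did not overlap follows from the rule that named them and is no result.

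Whether the gap between the cultures differed between the lines was tested with the interaction of culture and line. Of 12422 genes 18 (0.145%) had a gap that was more negative for the H3.3K27M line, each at an adjusted p of 0.0488, and none (0%) the reverse. At an unadjusted p under 0.05 the same test of edgeR gave 1564 genes, and DESeq2 called 607. The 3 named by the rule were Anxa3, which codes for an annexin, Dcn, which codes for the matrix proteoglycan decorin, and Dusp5, a phosphatase gene induced by ERK signalling. Dcn measured 103 and 105 CPM in WT-H3.3 and 2.76 and 1.86 CPM in H3.3K27M OPC cultures, and 12.3 and 18.7 CPM in WT-H3.3 and 20.6 and 23.3 CPM in H3.3K27M RA-treated cells (difference of the log2 differences -5.99 ± 0.50). Anxa3 measured 62.2 and 58.4 and 0.766 and 0.717 CPM in OPC cultures of the 2 lines and 116 to 182 CPM in RA-treated cells (-6.30 ± 0.47), and Dusp5 44.5 and 40.3 and 2.76 and 3.44 CPM against 64.2 to 94.1 CPM (-4.09 ± 0.39). In all 3 genes the H3.3K27M OPC libraries were the low ones, and the 2 lines of RA-treated cells lay close together. With size factors of DESeq2 none of the 18 calls was left, and leaving out any 1 library left 0 to 2. On the other side the nearest genes were the synaptic gene Syt1, the replication fork gene Timeless and the POU factor gene Pou3f1, each at an adjusted p of 0.0584. Syt1 measured 11.4 and 15.3 CPM in WT-H3.3 and 208 and 303 CPM in H3.3K27M OPC cultures, against 1.84 to 2.88 CPM in RA-treated cells (4.39 ± 0.53).

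The levels themselves show where the lines of the OPC cultures parted. Both WT-H3.3 OPC libraries were above both H3.3K27M OPC libraries at 37.9% of the genes tested and below them at 37%, while the same orders held in RA-treated cells at 4.73% and 6.05%. Of the 25 fibroblast and matrix genes, 24 were higher in both WT-H3.3 OPC libraries, and in RA-treated cells none was. In OPC cultures 20 of them were higher by more than 4-fold on the scale of mean CPM + 1, against 4.06% of all genes tested. The collagen gene Col3a1 measured 221 and 256 CPM in WT-H3.3 and 4.6 and 2.87 CPM in H3.3K27M OPC cultures, beside 62.4 to 258 CPM in RA-treated cells, and Lum, which codes for lumican, 21.5 and 23 and 1.23 and 0.717 CPM beside 0 to 0.248 CPM. All 16 tested extraembryonic endoderm genes and all 6 tested chemokine and cytokine genes were in the same order. The chemokine gene Ccl2, below the filter, measured 216 and 202 CPM in WT-H3.3 and 1.53 and 1.29 CPM in H3.3K27M OPC cultures, with a single count in all in RA-treated cells.

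The opposite order held for cell cycle genes. All 24 tested DNA replication genes and all 26 mitosis genes were higher in both H3.3K27M OPC libraries than in both WT-H3.3 ones (median log2 ratios of WT-H3.3 over H3.3K27M of -1.38 and -1.60), and in RA-treated cells none was in either order. Of the 16 tested OPC identity genes 11 were higher in both H3.3K27M OPC libraries and 3 in both WT-H3.3 ones. Each of these counts rests on 2 libraries a line that differ little from each other, is given with no test, and whether the H3.3 gene, the clone or the make-up of the culture goes with the difference cannot be told apart.

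**Figure D4:**
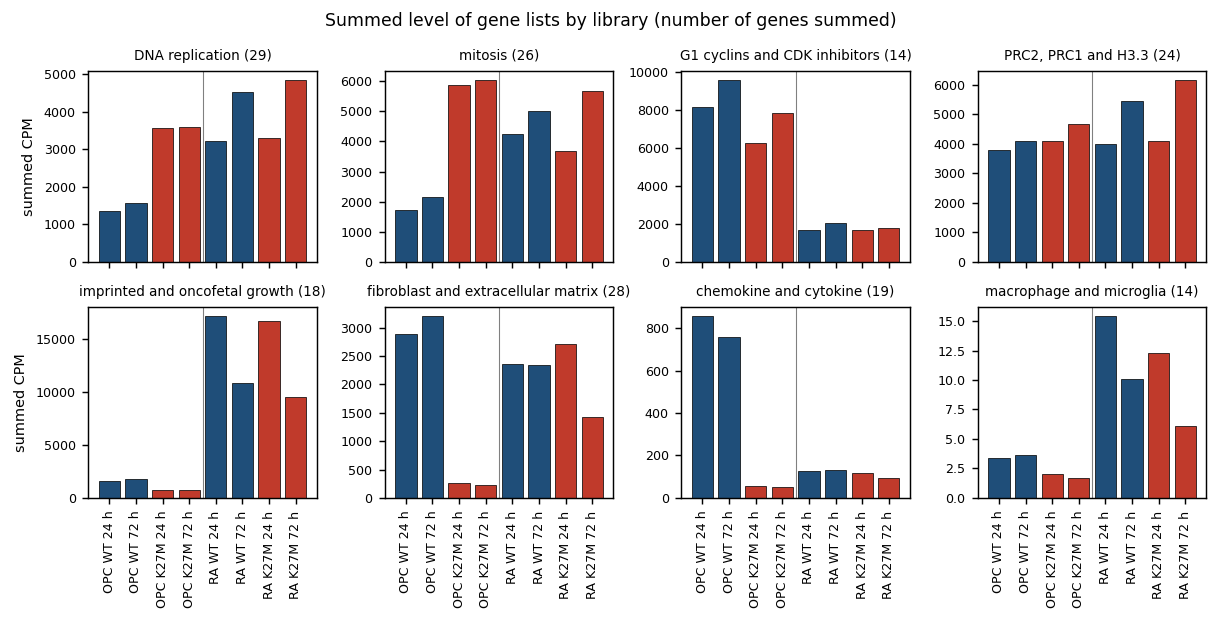
Summed CPM of the members of 8 gene lists in the 8 libraries, members on chromosome 8 included. Bars start from 0, blue for WT-H3.3 and red for H3.3K27M, with a grey line between OPC cultures and RA-treated cells. The G1 list is high in all 4 OPC libraries (6265 to 9591 CPM), most of it the single gene Ccnd2 (4577 to 7388 CPM). The imprinted list is low in all 4, and the fibroblast list is low in the H3.3K27M OPC libraries (268 and 223 CPM). The chemokine list is high in the WT-H3.3 OPC libraries (858 and 757 CPM), and the DNA replication and mitosis lists are low in them.

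**Figure D5:**
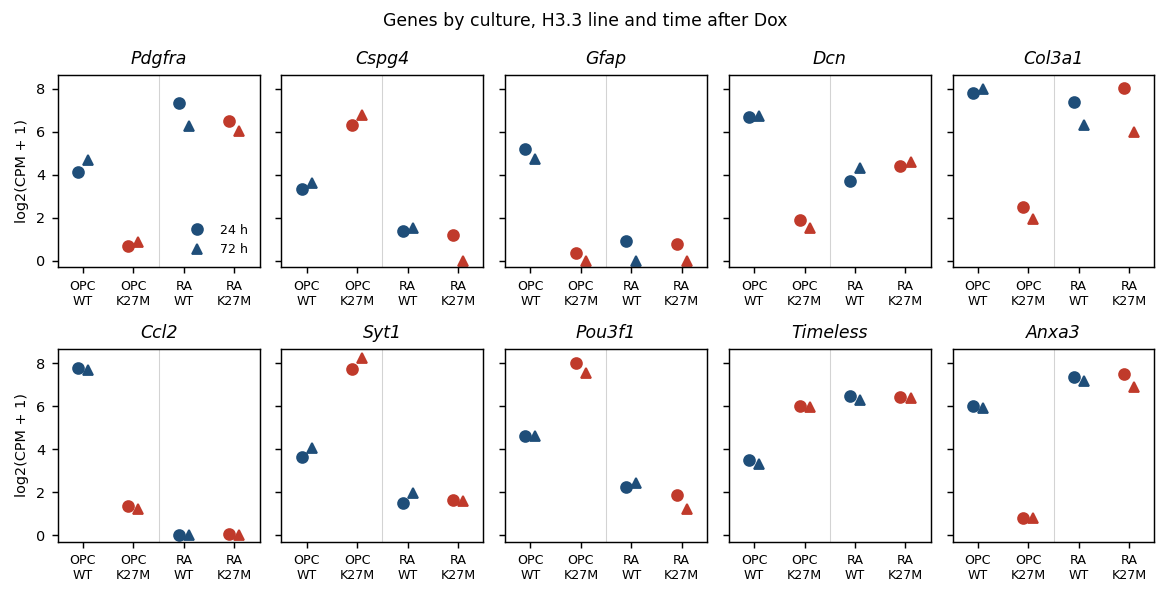
Levels of single genes in log2(CPM + 1), with a panel for each gene and points for the 24 h and 72 h libraries by culture and H3.3 line. Col3a1, Dcn, Ccl2 and Gfap are high in WT-H3.3 and low in H3.3K27M OPC cultures, Cspg4, Syt1, Pou3f1 and Timeless the reverse, and the lines of RA-treated cells lie together.

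The gap between the cultures also differed between 24 h and 72 h. In the test of the interaction of culture and Dox time 2367 genes (19.1%) were called, 998 (8.03%) with a gap that was more positive at 72 h and 1369 (11%) with one that was more negative. For the genes described next the RA-treated libraries of 24 h were the ones that stood apart. Ptbp1, a splicing regulator gene, stayed at 1.53 to 2.48 CPM in OPC cultures and measured 496 and 532 CPM in RA-treated cells at 24 h but 2.4 and 2.36 CPM at 72 h (7.78 ± 0.41, adjusted p = 0.00182). Ctnnb1, which codes for beta-catenin, and Tmsb10, a thymosin gene, showed the same pattern (5.17 ± 0.25 and 4.21 ± 0.26). In the other direction stood Gm10260, Gm11539 and Cd63-ps, pseudogenes whose reads can be shared with near-identical genes and whose levels are therefore uncertain. Gm10260 measured 267 to 437 CPM in OPC cultures, 0.184 and 0.289 CPM in RA-treated cells at 24 h and 313 and 216 CPM at 72 h (-10.30 ± 0.51, adjusted p = 0.00182). These genes moved with the Gapdh level and pseudogene share of the RA-treated libraries of 24 h given above, whose part in the result was not tested.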

How the data were processed

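RNA-seq libraries of mouse cells were used as deposited gene counts: the authors aligned reads to mm9 with STAR 2.7.1, and the deposited values are counts a gene without normalisation. The members and the gene lists were chosen with earlier results of these data known. Libraries were grouped by the labels. The 72 h columns of the OPC table carry another replicate number than their titles and were matched by culture, line and time. Chromosome 8 was left out of the tests, as in the study's methods (2532 of 55471 genes, 6.21% of counts). Library totals and summed levels of gene lists kept its genes.

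Genes were filtered with filterByExpr and tested in edgeR 4.0.16 (R 4.3.3, TMM, quasi-likelihood F test) on all 8 libraries with culture and line as factors. Genes at a Benjamini-Hochberg adjusted p under 0.05 and a fold change above 2 were called. The 24 h and 72 h values came from 1 model with a mean for each culture and time plus line, and differences between lines and times from interaction terms. Values after ± are SE, and positive log2 values mean higher in OPC cultures. DESeq2 1.42.0 and limma 3.58.1 served as alternatives. CPM were scaled by TMM. A floor of 3 counts a library and exact 95% Poisson-based intervals cover counting error only, and 3 counts were 0.124 to 1.44 CPM. Scripts were tested on simulated data. Named genes were the lead genes, up to 4 called genes of lowest adjusted p of each list, every Hox gene, H3f3a and H3f3b. Added to them were the 10 of lowest adjusted p in each direction among called genes with a symbol whose groups did not overlap. So were 3 in each direction of each difference test. Others are marked in the text or named only for their status. Some list members are counted but not reported singly here. Promoters came from RefSeq (GRCm38.p6).

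Times were not paired: the 72 h minus 24 h differences of OPC cultures and RA-treated cells correlated at -0.073 in WT-H3.3 and 0.002 in H3.3K27M. No 2 libraries were copies. The alternatives were DESeq2, its size factors, library size alone, no filter, at least 10 counts in every library, chromosome 8 kept, a replicate block, a mean for each culture and time, limma voom, the H3.3K27L libraries added, a fold change above 4, each library left out and, chosen after seeing the data, both RA-treated libraries of 24 h left out.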

Additional observations from a re-analysis of the deposited data

Results flagged for a closer look

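Of 436 groups of 4 libraries, 18 (4.1%) held a library far from the other 3, where chance gives about 1 in 20. In OPC cultures these were Sox21 at 74.0 CPM and Hoxc10 at 0.143 CPM in H3.3K27M at 72 h, Actc1 at 0.613 CPM in H3.3K27M at 24 h, Gli1 at 0.552 CPM and Cldn4 at 0.221 CPM in WT-H3.3 at 72 h, and Hoxb1 at 0.0918 CPM and Wnt6 at 0.275 CPM in WT-H3.3 at 24 h. In RA-treated cells of the H3.3K27M line at 24 h they were the total of 22.27 M counts, S100b and Scg2 at 0.0414 CPM each, Nkx2-5 at 11.2 CPM, 2610017I09Rik at 0.0827 CPM and Mlc1 at 0.165 CPM. The other RA-treated values were Crabp2 at 150.8 CPM and Nav3 at 2.02 CPM in H3.3K27M at 72 h, the summed neuron list at 181.4 CPM in WT-H3.3 at 72 h, and Cubn at 217 CPM and Hoxb8 at 19.3 CPM in WT-H3.3 at 24 h.

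By a test of the difference itself, the gap between the cultures differed between the lines at 18 genes, with differences of -6.30 for Anxa3, -5.99 for Dcn and -4.09 for Dusp5 on the log2 scale (H3.3K27M minus WT-H3.3). It differed between the times at 2367 genes, with differences (72 h minus 24 h) of 5.17 for Ctnnb1, 7.78 for Ptbp1 and 4.21 for Tmsb10, and of -7.46 for Cd63-ps, -7.41 for Gm11539 and -10.3 for Gm10260.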

How the results depend on the processing

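For OPC cultures against RA-treated cells the 3812 calls became 6695 with no filter on low counts, 2070 with at least 10 counts in every library and 2237 at a fold change above 4, and leaving out 1 library gave 2555 to 4894. Library size alone moved the median of all genes to -0.320 and gave 1278 genes higher in OPC cultures of 4128. Dox time as a replicate block gave 3952, although the times did not pair the samples. For OPC cultures against RA-treated cells at 24 h after Dox the calls ranged from 5167 to 6259 and at 72 h after Dox (OPC cultures against RA-treated cells at 72 h after Dox) from 592 (without the H3.3K27M RA-treated library) over 733, 1037 and 1108 (without the H3.3K27M OPC, the WT-H3.3 RA-treated and the WT-H3.3 OPC library) to 2222 when 1 library was left out, and the calls that differed between times from 722 to 1402. The 18 genes that differed between lines became 607 in DESeq2, 517 with no filter and 0 with size factors of DESeq2, and 0 to 2 when 1 library was left out. Of 3727 alternative values of the 192 named genes tested, 3527 kept direction and side of the threshold, 125 lost the call, 74 gained it, and Kif20a reversed to 0.017 without both RA-treated libraries of 24 h. The causes were not tested. Depth limits the RA-treated libraries of 72 h most, at 2239137 and 3105371 counts.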
